A study of Mus musculus with 13 samples.

Results

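Liver expression of 9 genes was described, the p53 targets Cdkn1a, Ccng1, Zmat3, Mdm2, Btg2 and Phlda3 and the 3 GADD45 genes Gadd45a, Gadd45b and Gadd45g. They were taken from a list of 10 genes, each represented by the array feature that carried its symbol alone and had the highest mean over the 13 livers, out of 18820 genes named in this way. The tenth gene, Bax, had no feature with a single symbol and was not analysed here. The livers came from C57BL/6J mice of 4 groups, LiSel1lKO at 9 wks (n = 3), LiSel1lKO at 3 wks (n = 4), wildtype at 9 wks (n = 3) and wildtype at 3 wks (n = 3). In LiSel1lKO mice Cre recombinase, driven by the albumin promoter and so active in hepatocytes, removed the floxed exon 6 of Sel1l. The lacZ-neo cassette of the original allele had been deleted with FLPe before that cross. Other liver cells keep the gene, and the wildtype label does not say whether those mice carried the floxed alleles or Cre. All mice had fasted in the morning for 5 to 6 hours, the labels give neither sex nor litter, and each liver was hybridised to its own array. Values are log2 expression, so a difference of 1 is a 2-fold change. Each gene was compared between groups of livers, and no gene's level was set against another's. Whole liver was measured, so fewer cells of a type and less RNA per cell cannot be told apart.

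p53 is a transcription factor held at a low level by the ubiquitin ligase Mdm2, which is itself a p53 target. When DNA is damaged or growth signals are abnormal, p53 accumulates and switches on genes that stop the cell cycle, repair DNA or start cell death. The GADD45 proteins are small acidic proteins that bind PCNA, p21 and the kinase Map3k4, and so couple stress to DNA repair, cell cycle arrest and p38 and JNK signalling. Gadd45a is a p53 target, whereas Gadd45b and Gadd45g are known mainly as genes induced by cytokines, NF-kappaB signalling and liver regeneration. Sel1L works with Hrd1 in the disposal of misfolded proteins from the endoplasmic reticulum, and stress of the endoplasmic reticulum can raise Cdkn1a and GADD45 transcripts through ATF4 and CHOP as well as through p53.

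The promoters of 5 genes are shown because they hold the p53 full sites found and let the 3 GADD45 genes, which did not move alike, be compared. Each is the 250 bases upstream of the RefSeq start on the strand of the gene (build GRCm38.p6). In the Cdkn1a and Ccng1 promoters the capitals mark a p53 full site of 20 bases, 2 decamers without a spacer, found on both strands with 1 mismatch each. In the GADD45 promoters the capitals mark the octamer motif ATTTGCAT, the NF-Y box CCAAT and, in Gadd45g, the ATF4-CHOP composite motif TGATGNAAN, which overlaps the octamer. The motifs were chosen with the sequences in view.
Cdkn1a promoter, chr17:29090729-29090978, plus strand: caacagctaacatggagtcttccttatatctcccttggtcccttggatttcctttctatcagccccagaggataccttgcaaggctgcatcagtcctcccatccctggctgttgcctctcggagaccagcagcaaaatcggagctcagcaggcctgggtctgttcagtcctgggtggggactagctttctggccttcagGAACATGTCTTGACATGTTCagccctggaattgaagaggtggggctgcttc
Ccng1 promoter, chr11:40755287-40755536, minus strand: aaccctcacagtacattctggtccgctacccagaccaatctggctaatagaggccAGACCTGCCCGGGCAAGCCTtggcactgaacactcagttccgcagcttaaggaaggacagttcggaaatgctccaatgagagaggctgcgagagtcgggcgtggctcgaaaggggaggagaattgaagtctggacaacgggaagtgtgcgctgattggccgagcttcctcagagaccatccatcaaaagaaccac
Gadd45a promoter, chr6:67037408-67037657, minus strand: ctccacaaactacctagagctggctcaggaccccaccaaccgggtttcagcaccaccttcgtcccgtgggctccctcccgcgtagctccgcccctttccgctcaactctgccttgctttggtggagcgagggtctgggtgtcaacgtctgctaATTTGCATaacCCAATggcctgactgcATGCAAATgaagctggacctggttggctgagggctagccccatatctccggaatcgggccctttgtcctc
Gadd45b promoter, chr10:80929841-80930090, plus strand: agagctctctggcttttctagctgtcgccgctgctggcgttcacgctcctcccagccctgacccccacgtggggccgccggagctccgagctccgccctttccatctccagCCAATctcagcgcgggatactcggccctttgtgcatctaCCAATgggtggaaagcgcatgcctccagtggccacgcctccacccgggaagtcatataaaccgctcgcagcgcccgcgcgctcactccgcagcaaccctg
Gadd45g promoter, chr13:51846425-51846674, plus strand: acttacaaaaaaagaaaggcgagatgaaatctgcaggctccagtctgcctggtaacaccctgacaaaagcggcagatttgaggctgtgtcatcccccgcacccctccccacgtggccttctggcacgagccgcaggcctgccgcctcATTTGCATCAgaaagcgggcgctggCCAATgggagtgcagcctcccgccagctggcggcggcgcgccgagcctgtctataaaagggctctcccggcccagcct

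RefSeq promoter windows, from 250 bases before to 50 after the start, were given for 9 of the 10 listed genes, Bax included and Zmat3 not. A p53 full site, allowing up to 2 mismatches outside the core C and G of each decamer, lay in 2 of these 9, against 107 of all 32817 windows (0.326%). In Cdkn1a it was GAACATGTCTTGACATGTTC at chr17:29090928-29090947, 51 bases before the upstream start and 2841 bases before the downstream start. In Ccng1 it was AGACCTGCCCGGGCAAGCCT at chr11:40755462-40755481, 195 bases before the start. Of 27 other p53 targets with a window, 2 held such a site (Gtse1 and Rps27l). These gene counts allow any window of a gene, with 2 for Cdkn1a, whereas the share of all windows counts each window. Cdkn1a and Ccng1 were listed as p53 targets to begin with, so their contrast with all windows is no separate evidence. A p53 half-site of 10 bases without a mismatch was found in Cdkn1a, Ccng1, Mdm2, Gadd45a and Bax, and in 8.355% of all windows. The octamer motif stood at 2 places in Gadd45a, once on each strand, and at 1 in Gadd45g (1.737% of all windows), and Gadd45b had none. The ATF4-CHOP motif was found in Gadd45g (3.955% of all windows), on the opposite strand to the octamer. The NF-Y box occurred in Btg2, Ccng1, Mdm2 and all 3 GADD45 promoters (37.389% of all windows). The TBP box TATAAA occurred in Gadd45b and Gadd45g (13.621%). All motifs were searched on both strands, and a match is a stretch of letters, not a measured binding site.

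**Figure D1:**
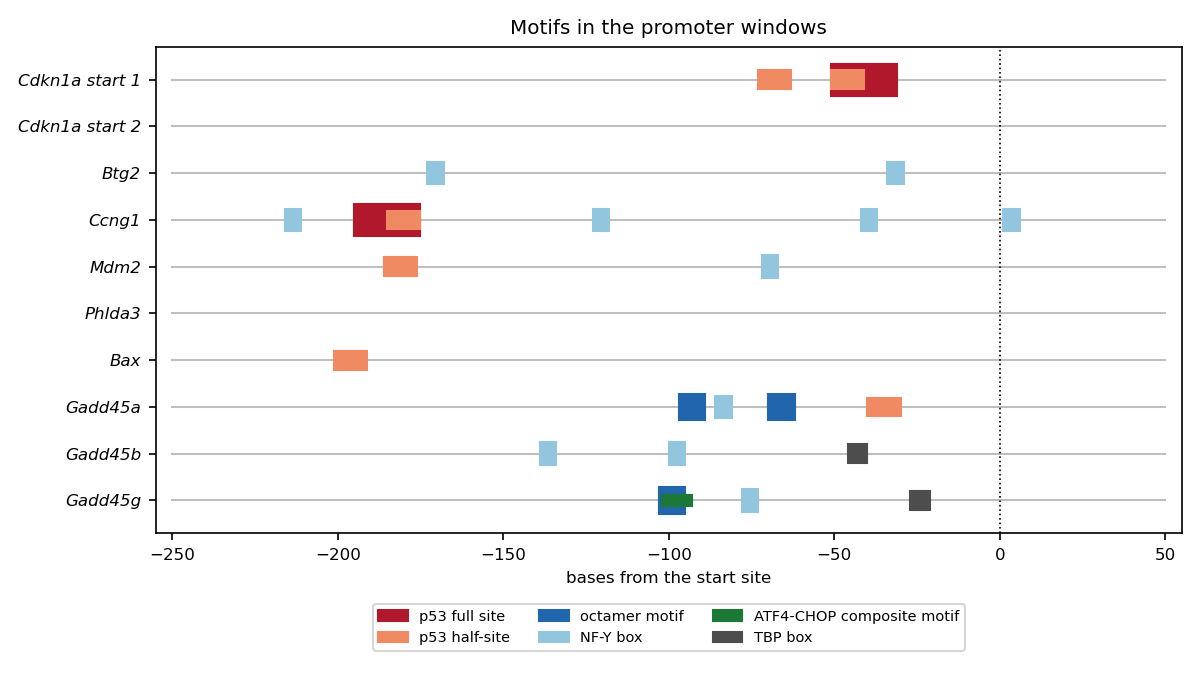
Motifs found in the RefSeq promoter windows of the listed genes, 1 line per start, with bases from the start site on the horizontal axis and each motif drawn to its length. The p53 full sites lie at the upstream start of Cdkn1a, 51 bases before it, and in Ccng1, 195 bases before the start. The octamer motif appears in Gadd45a and Gadd45g only among these windows.

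The array medians lay between 3.72 and 3.81, and the median SD of a feature within a group between 0.148 and 0.156. Sel1l was lower in every LiSel1lKO liver than in any wildtype liver of its age, at 7.10 to 8.42 against 8.77 to 8.94 at 3 wks and at 7.54 to 7.90 against 8.70 to 8.78 at 9 wks. Its difference over both ages passed the limma test (-1.11 ± 0.19, SE; adjusted p = 0.0269). Within a single age it missed the threshold, at 3 wks (-1.21 ± 0.26; adjusted p = 0.391) and at 9 wks (-1.02 ± 0.28; adjusted p = 0.108). Replicates 3 and 4 of the LiSel1lKO livers at 3 wks had the least Sel1l (7.20 and 7.10). Hepatocyte markers averaged 12.08 to 12.25 over LiSel1lKO livers and 12.15 to 12.24 over wildtype livers. Of these 10 markers limma called 0 at either age (0% of all features at 3 wks and 1.52% at 9 wks). At 9 wks 2 of 10 were lower at an unadjusted p under 0.05 (6.04% of all features). All livers were hybridised in plate column 5 or 7, a possible technical batch that holds livers of every group.

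At 9 wks, 8 of the 9 genes had a higher mean in LiSel1lKO than in wildtype liver, with a median log2 difference of 0.63, against -0.01 over all features. Zmat3 and Gadd45b rose, which makes 2 of 9 changed, against 1.52% of all features (limma, adjusted p under 0.05 over 35556 features). In 6 of the 9 every LiSel1lKO liver lay above every wildtype liver (Cdkn1a, Ccng1, Zmat3, Mdm2, Gadd45a and Gadd45b), against 9.89% of all features. None of the 9 had all LiSel1lKO livers below all wildtype livers, against 8.52% of features. Gadd45g had the only lower mean.

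**Figure D2:**
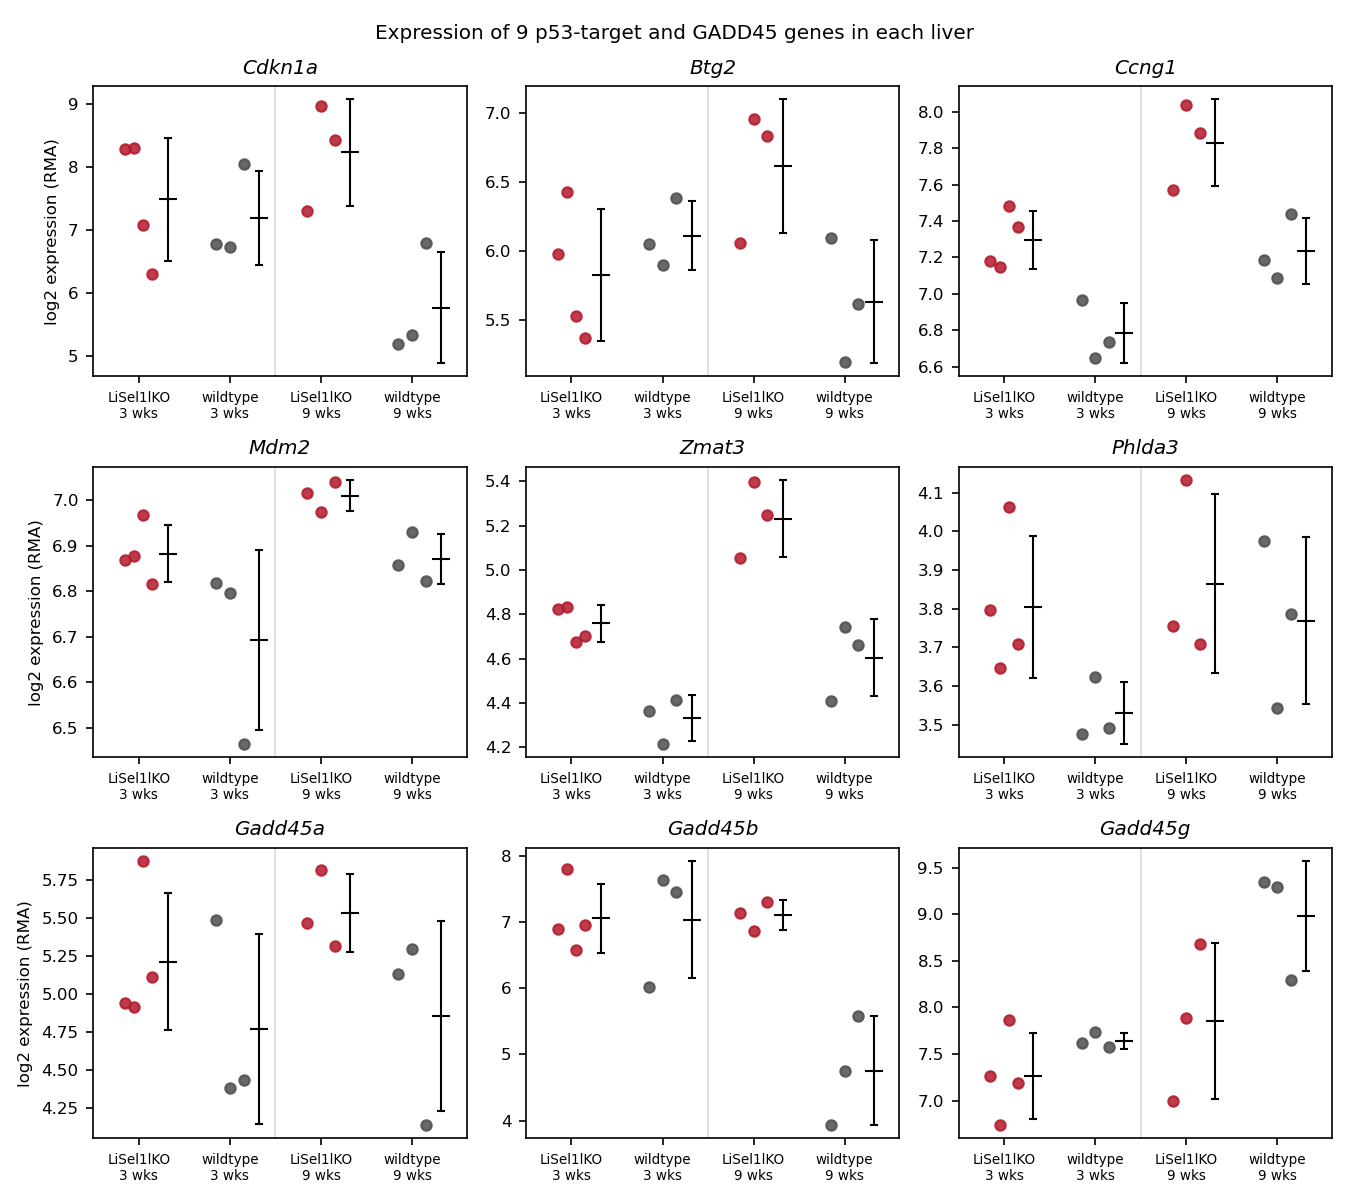
Log2 expression (RMA) of the 9 genes in each liver, 1 point per liver, LiSel1lKO in red and wildtype in grey, with the group mean and SD beside the points (n = 4, 3, 3 and 3). The vertical scale differs between panels. At 9 wks the LiSel1lKO livers do not overlap wildtype for Cdkn1a, Ccng1, Zmat3, Mdm2, Gadd45a and Gadd45b. LiSel1lKO replicate 1 is the nearest to wildtype for Cdkn1a and Ccng1.

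Cdkn1a encodes p21, the inhibitor of cyclin-dependent kinases that carries much of the p53 cell cycle arrest (feature 10443463; gene at chr17:29090979-29100722). At 9 wks it stood at 7.30, 8.95 and 8.42 in LiSel1lKO livers, against 5.19, 5.33 and 6.78 in wildtype livers. All 3 LiSel1lKO livers were above all 3 wildtype livers, and LiSel1lKO replicate 1 and wildtype replicate 3 were the nearest to each other. The difference was the largest of the 9 genes, 2.46 ± 0.64 (SE; 5.49-fold; 95% interval 1.04 to 3.87), and missed the threshold over all features (adjusted p = 0.0944). At 3 wks the LiSel1lKO livers stood at 8.27, 8.29, 7.07 and 6.29, against 6.78, 6.72 and 8.04 in wildtype livers. The groups overlapped at that age, with LiSel1lKO replicates 1 and 2 above and replicate 4 below the wildtype range. The 3-wk difference was 0.30 ± 0.60 (SE; adjusted p = 0.936). Within plate columns 5 and 7 the difference was 2.53 and 2.97 at 9 wks, and -0.12 and 0.95 at 3 wks. Column 5 at 9 wks and column 7 at 3 wks each held 1 wildtype liver, and column 7 at 9 wks held 1 LiSel1lKO liver.

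Btg2 encodes an antiproliferative protein that recruits the CCR4-NOT deadenylase to mRNAs (feature 10357875; chr1:134074865-134079155). Its 9-wk values were 6.06, 6.95 and 6.83 in LiSel1lKO livers and 6.09, 5.20 and 5.61 in wildtype livers. LiSel1lKO replicate 1 lay just below wildtype replicate 1, and the other LiSel1lKO livers lay above the wildtype range. The difference was 0.98 ± 0.32 at 9 wks (SE; 1.97-fold; adjusted p = 0.178) and -0.28 ± 0.30 at 3 wks (adjusted p = 0.864). The 3-wk livers stood at 5.98, 6.43, 5.53 and 5.37 in LiSel1lKO and 6.05, 5.90 and 6.39 in wildtype, and the groups overlapped.

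Ccng1 encodes cyclin G1, an atypical cyclin that brings protein phosphatase 2A to Mdm2 (feature 10385271; chr11:40748552-40755309). At 9 wks it stood at 7.57, 8.04 and 7.89 in LiSel1lKO livers, against 7.19, 7.08 and 7.44 in wildtype livers. The 3-wk values were 7.18, 7.15, 7.48 and 7.37 in LiSel1lKO livers, against 6.97, 6.65 and 6.74 in wildtype livers. Every LiSel1lKO liver was above every wildtype liver of its age. The difference was 0.59 ± 0.15 at 9 wks (SE; 1.51-fold; adjusted p = 0.0767) and 0.51 ± 0.14 at 3 wks (1.43-fold; adjusted p = 0.439). Averaged over both ages Ccng1 rose by 0.55 ± 0.10 (1.47-fold; 95% interval 0.33 to 0.77; adjusted p = 0.0334). Within plate columns 5 and 7 the difference was 0.64 and 0.73 at 9 wks and 0.41 and 0.68 at 3 wks. The call over both ages held without wildtype replicate 1 at 3 wks, wildtype replicate 3 at 9 wks or LiSel1lKO replicate 1 at 9 wks, and ended without any 1 of the other 10 livers (adjusted p between 0.0522 and 0.0985).

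Zmat3 encodes a zinc finger protein that binds RNA and is among the p53 targets with a role in tumour suppression in mice (feature 10497673; chr3:32334792-32365665). In LiSel1lKO livers at 9 wks it stood at 5.05, 5.40 and 5.25, against 4.41, 4.74 and 4.66 in wildtype livers. In LiSel1lKO livers at 3 wks it stood at 4.82, 4.84, 4.67 and 4.70, against 4.37, 4.21 and 4.42 in wildtype livers. The groups did not overlap at either age. The SD within a group was 0.08 and 0.10 at 3 wks, below that of the median feature (0.156 and 0.153). At 9 wks it was 0.17 in both groups, slightly above that of the median feature (0.148 and 0.150). Zmat3 rose at 9 wks by 0.63 ± 0.11 (SE; 1.55-fold; 95% interval 0.38 to 0.88; adjusted p = 0.0263). Its 3-wk difference, 0.43 ± 0.11 (1.34-fold), did not pass over all features (adjusted p = 0.425). Averaged over both ages it rose by 0.53 ± 0.08 (1.44-fold; adjusted p = 0.0147).

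Zmat3 differed by 0.41 at 9 wks in plate column 5, where the 1 wildtype liver was the highest of its group, and by 0.86 in column 7, where the 1 LiSel1lKO liver was the highest of its group. It was 0.38 and 0.54 in those columns at 3 wks. The 9-wk call ended with plate column as a block (adjusted p = 0.0511), with only the livers of that age (0.191), and without any 1 of wildtype replicates 1, 2 and 3 or LiSel1lKO replicates 2 and 3 of that age (0.0549 to 0.115). The call over both ages ended without LiSel1lKO replicate 3 at 9 wks (adjusted p = 0.0513) and held without any other single liver.

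Mdm2, the ubiquitin ligase that limits p53 (feature 10372668; chr10:117688875-117710758), differed least among the genes without overlap at 9 wks. It stood at 7.02, 6.97 and 7.04 in LiSel1lKO livers, against 6.86, 6.93 and 6.82 in wildtype livers. The LiSel1lKO livers were all higher, with LiSel1lKO replicate 2 closest to wildtype replicate 2. The difference was 0.14 ± 0.10 at 9 wks (SE; 1.10-fold; adjusted p = 0.578). The 3-wk livers stood at 6.87, 6.88, 6.97 and 6.82 in LiSel1lKO livers and 6.82, 6.80 and 6.46 in wildtype livers, and the difference was 0.19 ± 0.09 (adjusted p = 0.685). Wildtype replicate 3 was the low liver there, and without it the 3-wk difference was 0.08.

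Phlda3, a protein with a pleckstrin homology domain that competes with Akt for membrane lipids (feature 10350146; chr1:135766085-135769134), lay near the array medians. A difference there may be understated, since part of the value can be background. At 3 wks it stood at 3.80, 3.65, 4.06 and 3.71 in LiSel1lKO livers, against 3.48, 3.62 and 3.49 in wildtype livers. The groups did not overlap, and the difference was 0.27 ± 0.14 (SE; adjusted p = 0.703). At 9 wks they did overlap, at 3.75, 4.13 and 3.71 in LiSel1lKO and 3.98, 3.54 and 3.79 in wildtype livers, with a difference of 0.10 ± 0.15 (adjusted p = 0.846).

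The 3 GADD45 genes did not move alike. Gadd45b, a stress sensor that is induced early in regenerating liver and restrains JNK signalling through Map2k7 (feature 10364950; chr10:80930091-80932204), stood at 7.13, 6.86 and 7.31 in LiSel1lKO livers at 9 wks. The wildtype livers of that age stood at 3.94, 4.74 and 5.59. The groups were far apart, and the wildtype livers were the more spread. Wildtype replicate 1, at 3.94, lay near the array medians, so the difference may be understated. Gadd45b rose at 9 wks by 2.34 ± 0.48 (SE; 5.07-fold; 95% interval 1.29 to 3.40; adjusted p = 0.0400). At 3 wks the LiSel1lKO livers stood at 6.89, 7.80, 6.58 and 6.96 and the wildtype livers at 6.02, 7.63 and 7.46. The groups overlapped there, and the difference was 0.02 ± 0.45 (adjusted p = 0.994).

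In plate columns 5 and 7 taken alone, Gadd45b differed by 2.48 and 2.10 at 9 wks and by 0.64 and -0.89 at 3 wks. The 9-wk call ended with plate column as a block (adjusted p = 0.0727) and with only the livers of that age (0.162). Without any 1 of wildtype replicates 1 and 2 and LiSel1lKO replicates 1, 2 and 3 at 9 wks, or wildtype replicate 3 and LiSel1lKO replicates 1, 3 and 4 at 3 wks, it also ended (0.0537 to 0.152). The log2 difference stayed between 1.93 and 2.76 with any 1 of the 13 livers left out.

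Gadd45a, the GADD45 gene known in human cells as a p53 target through an intronic site (feature 10545130; chr6:67035096-67037407), had no call at either age. At 9 wks it stood at 5.47, 5.82 and 5.32 in LiSel1lKO livers, against 5.13, 5.30 and 4.14 in wildtype livers. The LiSel1lKO livers were all higher, but LiSel1lKO replicate 3 lay close to wildtype replicate 2, and wildtype replicate 3 stood apart below. The difference was 0.68 ± 0.37 (SE; 1.60-fold; adjusted p = 0.465), and 0.32 without that wildtype liver. At 3 wks the values were 4.94, 4.92, 5.88 and 5.12 in LiSel1lKO and 5.49, 4.38 and 4.44 in wildtype livers, which overlapped (0.44 ± 0.35; adjusted p = 0.811).

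Gadd45g, a GADD45 protein that slows the growth of hepatoma cells (feature 10405211; chr13:51846675-51848475), had the opposite sign. At 9 wks it stood at 7.0, 7.89 and 8.68 in LiSel1lKO livers, against 9.34, 9.29 and 8.30 in wildtype livers. LiSel1lKO replicate 3 was above wildtype replicate 3, so the groups overlapped. The difference was -1.12 ± 0.41 (SE; 0.46-fold; adjusted p = 0.232). The 3-wk values were 7.27, 6.74, 7.87 and 7.19 in LiSel1lKO and 7.62, 7.74 and 7.57 in wildtype livers, a difference of -0.38 ± 0.38 (adjusted p = 0.857). The wildtype livers of that age lay within a narrow range, with LiSel1lKO livers on both sides of it.

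At 3 wks limma called 0 of the 9 genes and 0 of 35556 features (0%). At an unadjusted p under 0.05, 2 of the 9 (Zmat3 and Ccng1) were higher in LiSel1lKO liver and 0 lower, against 3.9% of all features higher and 3.5% lower. The median difference was 0.27, against 0.00 over all features, and 7 of the 9 lay above 0. In Ccng1, Zmat3 and Phlda3 the LiSel1lKO livers were all higher, 3 of 9 against 3.88% of all features, and in 0 of 9 were they all lower, against 3.53%. The 3-wk and 9-wk comparisons share no liver, but they share 1 estimate of the spread.

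Averaged over both ages, Zmat3 and Ccng1 rose, 2 of 9 against 0.799% of all features. At an unadjusted p under 0.05, 5 of the 9 were higher (Cdkn1a, Ccng1, Zmat3, Mdm2 and Gadd45b), against 7.32% of features, and 1 was lower (Gadd45g), against 5.31%. The differences that missed the adjusted threshold were 1.38 ± 0.44 for Cdkn1a, 1.18 ± 0.33 for Gadd45b, 0.16 ± 0.07 for Mdm2 and -0.75 ± 0.28 for Gadd45g (SE; adjusted p = 0.204, 0.142, 0.320 and 0.289). An exact permutation test over the livers within each age, with 700 arrangements and a two-sided unadjusted p of at least 0.00143, was run on all 9 genes. It gave that smallest p for Ccng1 and Zmat3 and 0.00286 for Mdm2. Ccng1 and Zmat3 did not overlap at either age, which by itself puts p at or next to the smallest value. For them the test restates that lack of overlap and adds no separate support. Much the same holds for Mdm2, which did not overlap at 9 wks. At 3 wks it overlapped only in that LiSel1lKO replicate 4 (6.816) lay just below wildtype replicate 1 (6.818). For the other 6 genes the exact p lay between 0.05 and 0.296.

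**Figure D3:**
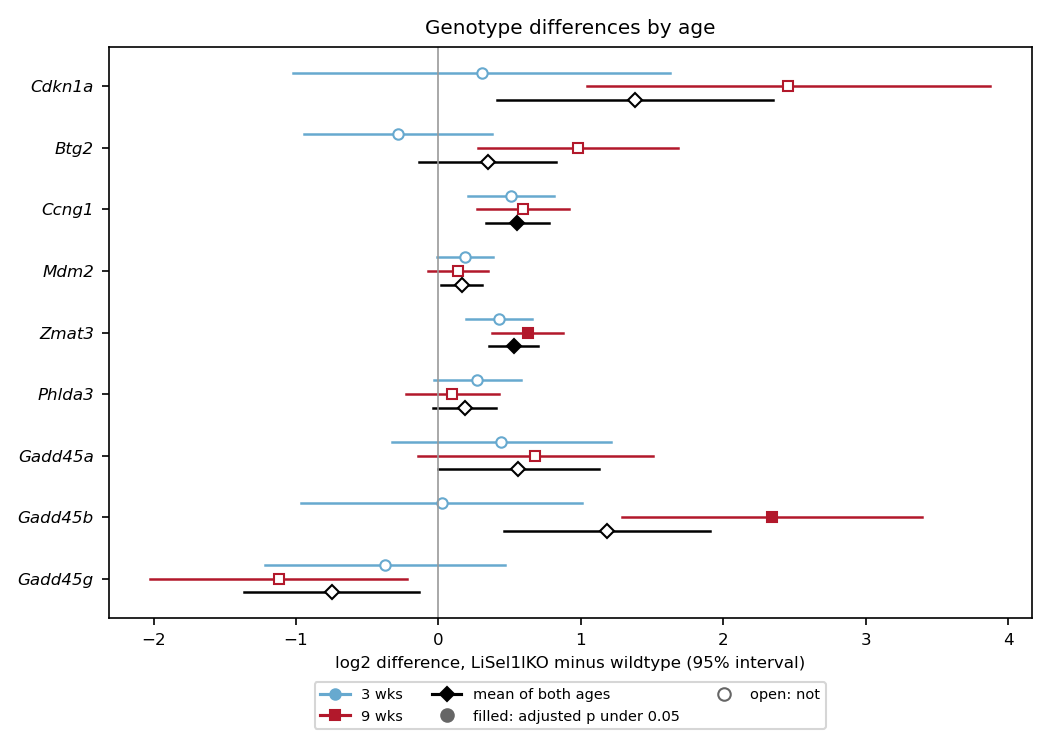
Log2 difference, LiSel1lKO minus wildtype, with its 95% interval, for each gene at 3 wks, at 9 wks and as the mean of both ages. Filled symbols have an adjusted p under 0.05: Zmat3 and Gadd45b at 9 wks, and Ccng1 and Zmat3 over both ages. Intervals are narrow for Ccng1, Mdm2 and Zmat3 and wide for Cdkn1a and Gadd45b.

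Whether the genotype difference itself changed with age was tested by the interaction, the 9-wk minus the 3-wk difference. Limma called 0 of the 9 genes and 0 of all features (0%), and 3 of the 9 were above 0 at an unadjusted p under 0.05, against 5.18% of features. The largest interactions were 2.32 ± 0.66 for Gadd45b, 2.15 ± 0.88 for Cdkn1a and 1.26 ± 0.44 for Btg2 (SE; adjusted p = 0.330, 0.469 and 0.404), with unadjusted p = 0.00464, 0.0324 and 0.0146 in the limma fit. For Ccng1 it was 0.08 ± 0.20, for Zmat3 0.20 ± 0.16 and for Mdm2 -0.05 ± 0.13. The 95% interval for Ccng1 ran between -0.36 and 0.53 and that for Zmat3 between -0.14 and 0.54.

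Age within a genotype was compared next, with 1.89% of all features called in wildtype and 0.155% in LiSel1lKO livers. In wildtype livers Gadd45b averaged 4.76 ± 0.82 at 9 wks and 7.03 ± 0.88 at 3 wks (SD, n = 3 each) and fell by 2.28 ± 0.48 (SE; 0.21-fold; adjusted p = 0.0386), without overlap. It was the 1 called gene of the 9 in wildtype. In LiSel1lKO livers it averaged 7.10 ± 0.23 at 9 wks (n = 3) and 7.06 ± 0.52 at 3 wks (n = 4), a difference of 0.04 ± 0.45 (SE; adjusted p = 0.990). The wildtype livers at 9 wks enter both this comparison and the 9-wk genotype comparison, so the 2 Gadd45b calls rest in part on the same 3 livers. The wildtype call ended with plate column as a block (adjusted p = 0.0720). It also ended without any 1 of wildtype replicates 2 and 3 and LiSel1lKO replicates 1 and 4 at 3 wks, or wildtype replicates 1 and 2 and LiSel1lKO replicates 1, 2 and 3 at 9 wks (0.0537 to 0.127).

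Gadd45g differed with age in the other direction in wildtype livers, at 8.98 ± 0.59 at 9 wks and 7.64 ± 0.08 at 3 wks (SD; 1.34 ± 0.41, SE; adjusted p = 0.152), without overlap. Cdkn1a averaged 5.77 ± 0.88 at 9 wks and 7.18 ± 0.74 at 3 wks in wildtype livers (-1.41 ± 0.64, SE; adjusted p = 0.369), and 8.23 ± 0.84 and 7.48 ± 0.98 in LiSel1lKO livers (0.74 ± 0.60; adjusted p = 0.775). Ccng1 was higher at 9 wks in both genotypes, by 0.54 ± 0.14 in LiSel1lKO and 0.45 ± 0.15 in wildtype (adjusted p = 0.186 and 0.179). Its ages did not overlap in either genotype, and nor did those of Mdm2. Mdm2 was higher at 9 wks by 0.13 ± 0.09 in LiSel1lKO and 0.18 ± 0.10 in wildtype (adjusted p = 0.721 and 0.470). Zmat3 differed by 0.47 ± 0.11 in LiSel1lKO and 0.27 ± 0.11 in wildtype (adjusted p = 0.127 and 0.317). In LiSel1lKO livers limma called 0 of the 9 genes between ages. At an unadjusted p under 0.05 there, 3 (Ccng1, Zmat3 and Btg2) were higher at 9 wks (0.00242, 0.000923 and 0.0231), against 5.19% of features. By the same threshold in wildtype livers, Ccng1, Zmat3 and Gadd45g were higher (0.0103, 0.0349 and 0.00740) and Gadd45b was lower. These were 3 of 9 higher and 1 of 9 lower, against 2249 and 2592 of all 35556 features.

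In each group the order of the livers differed between genes. The deviations from the wildtype mean of the same age showed LiSel1lKO replicates 2 and 3 at 9 wks highest for Cdkn1a (3.2 and 2.7) and Btg2 (1.3 and 1.2), with replicate 1 lower (1.5 and 0.4). For Gadd45b the 3 livers were close together (2.4, 2.1 and 2.6). At 3 wks LiSel1lKO replicates 1 and 2 were above the wildtype mean for Cdkn1a (1.1 each) and replicates 3 and 4 below it (-0.1 and -0.9), and it is replicates 3 and 4 that had the least Sel1l. Without those 2 livers, an alternative chosen after seeing the data, 0 of the 9 genes were called in any comparison.

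**Figure D4:**
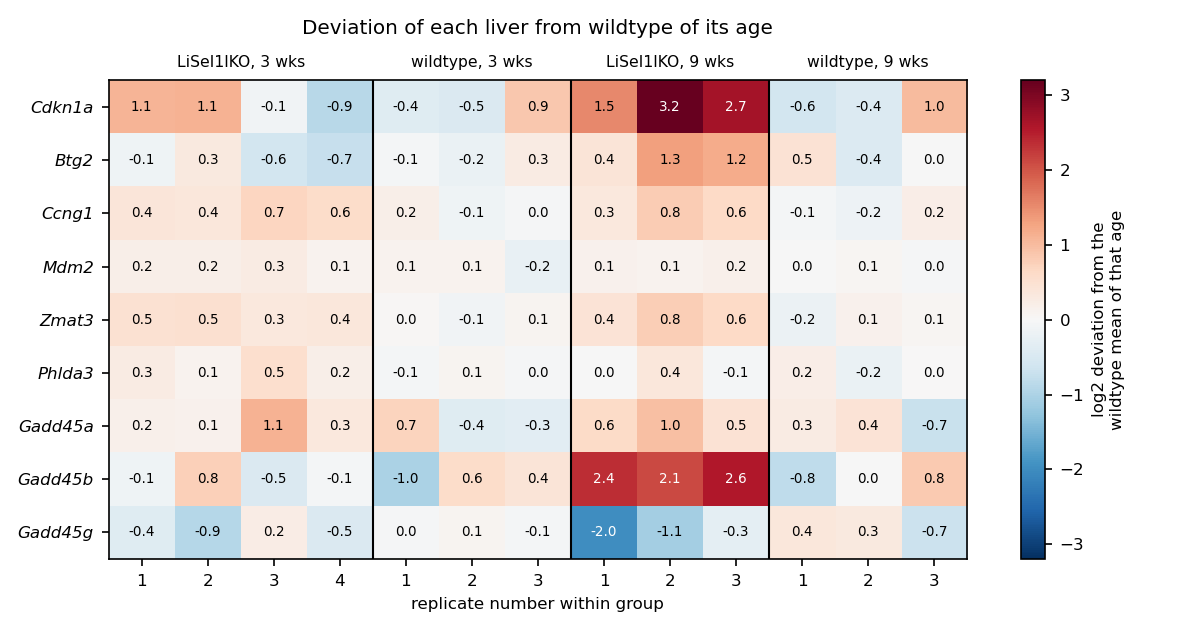
Deviation of each liver from the wildtype mean of its age, in log2 units, with genes down the page and livers across, grouped by genotype and age. Red is above and blue below the wildtype mean. The 3 LiSel1lKO livers at 9 wks stand out for Cdkn1a (1.5, 3.2 and 2.7) and Gadd45b (2.4, 2.1 and 2.6), and their Gadd45g values are below 0.

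Over the 13 livers Ccng1 and Zmat3 had the highest Pearson correlation among the 9 genes (r = 0.89), followed by Cdkn1a and Gadd45b (0.76) and Cdkn1a and Btg2 (0.75). Gadd45b and Gadd45g ran opposite (-0.78). These values are descriptions, since the livers share group means: after subtraction of the group means they were 0.28, 0.47, 0.69 and -0.41 for the same pairs. The largest in size after subtraction was that of Gadd45a with Gadd45b (-0.85, against -0.10 before). Cdkn1a and Zmat3 stood at 0.68 (0.59 before). Among 18066 genes, those most like Cdkn1a were Pole4, an accessory subunit of DNA polymerase epsilon (r = 0.97), Dhx8, an RNA helicase of the spliceosome (0.93), and Cgref1, a cell growth regulator with EF hands (0.93). Cgref1 rose at 9 wks by 2.71 (adjusted p = 0.0255). Most like Gadd45b were Cyp4a14, a fatty acid hydroxylase (0.91), Ccdc15 (0.91) and Sgms1, a sphingomyelin synthase (0.89). Most like Zmat3 were Sec24a, a cargo adaptor of COPII vesicles (0.94), the odorant receptor gene Olfr1213 (0.93) and Syvn1 (0.93), which encodes Hrd1 and rose at 9 wks by 1.70 (adjusted p = 0.0154). Each is the highest of many correlations over 13 points. Those points include the 9-wk livers, so the 9-wk rises of Cgref1 and Syvn1 follow in part from the choice and add no separate support. The other genes named for likeness were not called at 9 wks (adjusted p between 0.109 and 0.265). After subtraction of the group means the correlations were 0.90 to 0.93 for the genes like Cdkn1a and 0.74 to 0.83 for those like Gadd45b. For those like Zmat3 they were 0.65 to 0.80, with Syvn1 at 0.66.

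Other genes of the pathway were taken from lists. Of 33 other p53 targets, 1 rose at 9 wks and 0 fell, against 1.52% of all features changed, and limma called 0 at 3 wks. At an unadjusted p under 0.05, 7 of the 33 were higher and 1 lower at 9 wks (7.86% and 6.04% of all features), and 0 were higher and 3 lower at 3 wks (3.9% and 3.5%). The gene that rose was Ddit4, also known as REDD1, an inhibitor of mTORC1 that p53, ATF4 and glucocorticoids can induce. Ddit4 stood at 6.46, 7.01 and 6.64 in LiSel1lKO livers at 9 wks, against 5.11, 5.24 and 5.57 in wildtype livers. The groups did not overlap, and the difference was 1.39 ± 0.29 (SE; 2.63-fold; adjusted p = 0.0449). The median of the 33 was 0.13 at 9 wks with 23 above 0, and 0.01 at 3 wks with 18 above 0. The next smallest p-values at 9 wks belonged to Cd82, a tetraspanin (-0.38 ± 0.10), and Apaf1, the apoptosome scaffold (0.52 ± 0.14; adjusted p = 0.110 and 0.114).

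Among 16 measured regulators of p53, limma called 0 at 9 wks (1.52% of all features). At an unadjusted p under 0.05, 2 were higher and 1 lower, near the shares of all features (7.86% and 6.04%). Without overlap 4 were higher and 2 lower (9.89% and 8.52% of all features). Trp53 itself had no feature with a single symbol and was not analysed here. Chek1, a kinase of the DNA damage checkpoint, stood at 4.48, 4.35 and 4.52 in LiSel1lKO livers at 9 wks, against 3.53, 3.30 and 3.76 in wildtype livers. The groups did not overlap, and the wildtype values lay at or below the array medians, so the difference may be understated. It was 0.92 ± 0.21 on the log2 scale (SE; adjusted p = 0.0610). Rpl5, a ribosomal protein that binds Mdm2, differed by 0.29 ± 0.08, and Hipk2, a p53 kinase, by -0.27 ± 0.10 (adjusted p = 0.108 and 0.223).

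The cyclins, CDKs and PCNA, which p21 and GADD45 proteins bind or restrain, had a median difference of 0.25 at 9 wks, with 10 of 13 above 0 and 6 higher without overlap (9.89% of all features), and of -0.26 at 3 wks, with 1 of 13 above 0. Limma called 0 of the 13 at either age (1.52% of all features at 9 wks and 0% at 3 wks). At an unadjusted p under 0.05, 5 were higher at 9 wks and 3 lower at 3 wks (7.86% and 3.5% of all features). At 3 wks 2 LiSel1lKO livers stood apart, replicates 3 and 4 with a mean level over the 13 genes of 6.18 and 6.22. Replicates 1 and 2, at 6.73 and 6.76, lay within the wildtype range of 6.56 to 6.91. Ccnd1, cyclin D1, stood at 8.23, 8.06 and 9.16 in LiSel1lKO livers at 9 wks, against 7.55, 7.13 and 6.62 in wildtype livers, which did not overlap (1.38 ± 0.39, SE; adjusted p = 0.119). At 3 wks Ccnd1 differed by -0.53 ± 0.37 (adjusted p = 0.781). Pcna differed by 0.47 ± 0.17 at 9 wks and -0.40 ± 0.16 at 3 wks, and Ccna2, cyclin A2, by 0.74 ± 0.29 and -0.74 ± 0.27 (adjusted p between 0.236 and 0.641). The same 2 livers were the low ones for Ccna2 at 3 wks (5.13 and 4.96, against 5.97 and 5.99 in LiSel1lKO replicates 1 and 2) and for Pcna (7.89 and 7.90, against 8.41 and 8.48).

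Over all features at 9 wks limma called 1.52%, and 7.86% were higher and 6.04% lower at an unadjusted p under 0.05. By these shares few or no genes would be counted in lists of 7 to 13 genes, so 0 does not set a list apart. Of 7 CDK inhibitors other than Cdkn1a, limma called 0 at 9 wks and 0 had an unadjusted p under 0.05, with a median of 0.06. Cdkn1b, which encodes p27, differed by 0.36 ± 0.21, Cdkn2d by -0.37 ± 0.23 and Cdkn2a by -0.17 ± 0.08 (SE). Cdkn2a, and Mapk13 and Zmat1 given next, lay below the array medians in every liver at 9 wks, so their differences may be understated. Of 10 MAP kinases downstream of GADD45, 0 were called and 0 had an unadjusted p under 0.05 at 9 wks, with a median of -0.06 and 2 above 0. The smallest p-values were those of Mapk13 (0.26 ± 0.13), Map2k6 (-0.30 ± 0.21) and Map2k3 (-0.19 ± 0.16). Of 13 BCL2 family genes other than Bax, 0 were called, with a median of -0.02. At an unadjusted p under 0.05, 1 was higher (7.86% of all features). Bcl2l11, which encodes Bim, differed by 0.27 ± 0.11, Bmf by -0.34 ± 0.21 and Bik by -0.31 ± 0.18. Of 12 relatives of Btg2, Ccng1, Phlda3 and Zmat3, 0 were called, with a median of -0.10 and 3 above 0. At an unadjusted p under 0.05, 1 was lower (6.04% of all features). Phlda1, a relative of Phlda3, had the largest difference of these (-1.85 ± 0.64; adjusted p = 0.207), followed by Zmat1 (-0.30 ± 0.14) and Tob1 (-0.18 ± 0.11).

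**Figure D5:**
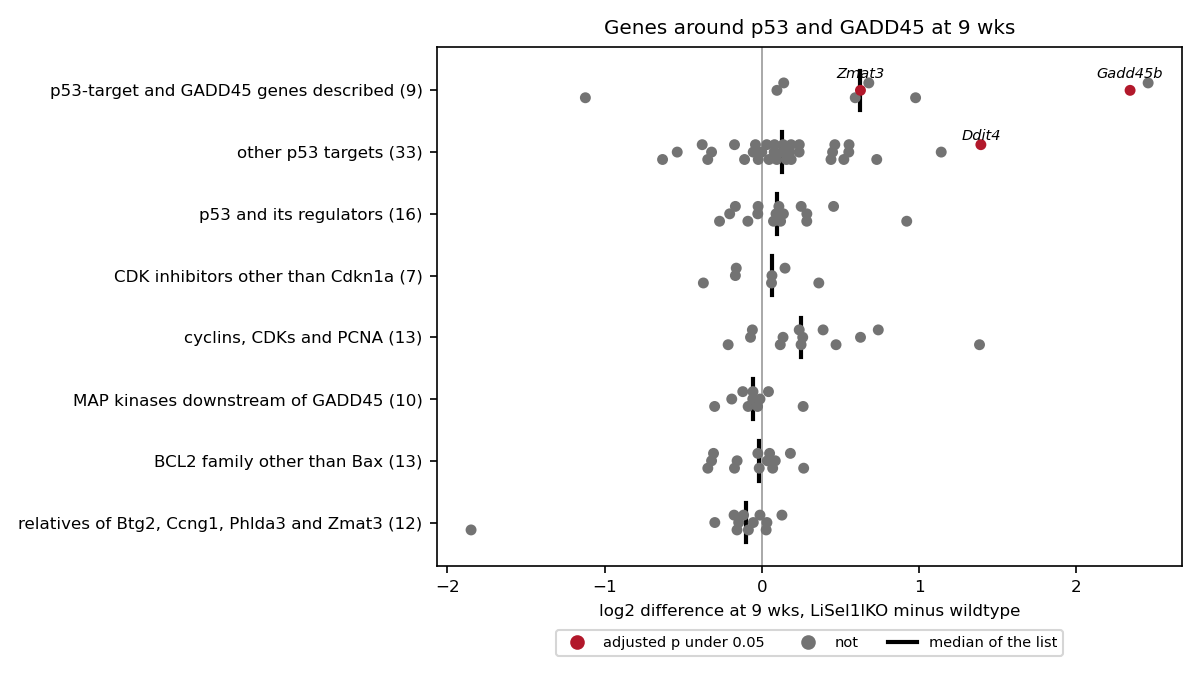
Log2 difference at 9 wks, LiSel1lKO minus wildtype, of each gene in the 8 lists, 1 point per gene, with the median of the list as a black bar and the number of measured genes in brackets. Red points have an adjusted p under 0.05: Zmat3, Gadd45b and Ddit4. The medians are 0.63 for the 9 genes described and 0.13 for the other p53 targets.

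Markers of other liver cells also differed between groups, and their part in these results was not tested. At 3 wks the Kupffer cell markers were lower in LiSel1lKO livers in 9 of 9 genes, 5 without overlap (3.53% of all features), at a mean level per liver of 7.35 to 7.67 against 7.83 to 7.95 in wildtype. Stellate cell markers were lower in 8 of 8 (6.91 to 7.18 against 7.29 to 7.30), endothelial markers in 5 of 7 (7.58 to 7.81 against 7.81 to 7.90, with the nearest livers almost level) and erythroid markers in 4 of 4 (4.11 to 4.62 against 4.61 to 5.37). At 9 wks the Kupffer (6.69 to 7.83 against 7.13 to 7.60), endothelial (7.40 to 7.57 against 7.41 to 7.56) and stellate ranges (6.97 to 7.10 against 6.89 to 7.14) overlapped, and the erythroid ranges did not (3.93 to 4.26 against 4.28 to 4.64). Limma called 0 of these markers between genotypes (0% of all features at 3 wks and 1.52% at 9 wks). At an unadjusted p under 0.05 at 3 wks, 1 of 9 Kupffer and 3 of 7 endothelial markers were lower (3.5% of all features). So were 2 of 8 stellate and 2 of 4 erythroid markers, and none of these was higher. By the same threshold at 9 wks, 1 of 7 endothelial, 1 of 4 erythroid and 2 of 7 lymphocyte markers were lower (6.04% of all features). There 1 endothelial and 1 stellate marker were higher (7.86%). Between ages in wildtype livers limma called 1.89% of all features, and some genes of these lists fell beside Gadd45b. Among markers these were Marco (1 of 9 Kupffer), Lyve1 and Stab2 (2 of 7 endothelial), Reln (1 of 8 stellate) and Slc4a1 (1 of 4 erythroid). Among cell cycle genes they were Ccna2, Ccnb2 and Pcna (3 of 13 cyclins, CDKs and PCNA), Cdkn1c and Cdkn3 (2 of 7 CDK inhibitors) and Chek2 (1 of 16 p53 regulators). Limma called 0 genes of these lists higher. Markers of monocytes and neutrophils, of lymphocytes and of bile duct lay between 3.08 and 4.10 on average, near or below the array medians, and were not called between genotypes.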

How the data were processed

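Liver RNA from 13 mice was profiled on whole-transcript Affymetrix arrays, 1 per liver, from RNA with an integrity number above 8, per the labels' protocols. The authors deposited log2 expression values made by RMA (robust multi-array averaging), per the submitters' processing notes; its version, the probe set definition and the genome build are not given in the sources. RMA corrects background and quantile-normalizes the arrays, so a shift common to most genes is largely removed. The table held 35556 features without detection calls. Features were named from the platform annotation (21218 with 1 symbol, 1881 with several, 12457 not listed), and 21185 of the 21218 matched the RefSeq gene table (GRCm38.p6), from which gene positions and promoter sequences came. A feature shared by Zmat3 and another gene was not used.

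Groups came from the sample titles; the array descriptions give both 9-wk livers titled replicate 3 the number 4. Limma 3.58.1 (R 4.3.3) fitted 1 mean for each group across the 13 livers, followed by eBayes and two-sided tests of each comparison. P-values were adjusted by Benjamini-Hochberg across the whole table, and genes with an adjusted p under 0.05 were called changed. SE, 95% intervals and adjusted p-values of single genes come from this fit. The fit was tested on simulated data. Nothing in the labels says that livers shared a litter or a hybridisation day, and the number of arrays limits the precision. Arrays of 1 group correlated at 0.9828 to 0.9884, so none appeared to be deposited more than once. The genes described, the lists and the motifs were chosen with earlier results of these data known, so counts over them are descriptions. Named from the lists were genes called between genotypes and the 3 with the smallest p at 9 wks; named for likeness were the 3 genes with the highest correlation, leaving out predicted genes. Alternatives were replicate number and plate column as blocks, feature filters, renewed normalization, trend and array weights, only the livers of 1 age, and each liver left out.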

Additional observations from a re-analysis of the deposited data

How the results depend on the processing

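With 3 or 4 livers a group, the calls rest on single arrays. At 9 wks 2 of the 9 genes were called. That count was 0 with the replicate block, 0 with plate column as a block, 0 with only the livers of that age and 0 without LiSel1lKO replicates 3 and 4 at 3 wks (chosen after seeing the data). It was 4 when features with 1 symbol were tested and 4 with array weights, where Cdkn1a (adjusted p = 0.0462 and 0.0397) and Ccng1 (0.0414 and 0.0249) joined, and 0 to 3 with 1 liver left out. Without LiSel1lKO replicate 1 at 9 wks Cdkn1a (0.0482) and Ccng1 (0.0245) passed, and Ccng1 also among features above the median mean (0.0437). Over both ages 2 were called, and 0 with the replicate block, 0 without those 2 livers and 0 to 2 with 1 liver left out. In wildtype ageing 1 was called, and 0 with either block, 0 without those 2 livers and 0 to 1 with 1 liver left out. At 3 wks, in the interaction and in LiSel1lKO ageing the count was 0 in each alternative run. Deviations of livers with the same replicate number were almost uncorrelated (between -0.011 and 0.071). That cannot decide whether such livers shared a litter or a day, since the labels do not give either.

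Over the whole table the 9-wk count of 539 features was 184 with the replicate block, 294 with plate column, 859 among features above the median mean, 1106 with array weights, 279 without the 2 livers, 1 with that age alone and 18 to 1178 with 1 liver left out. The count of 284 over both ages was 54, 175, 577, 640 and 1 under the first 5 of these and 37 to 876 with 1 liver left out. Wildtype ageing had 672 features, 440 with the replicate block and 296 to 639 with 1 liver left out. LiSel1lKO ageing had 55, with 12 under the replicate block, 18 under plate column, 109 among features above the median mean, 144 among those with 1 symbol, 35 with centred arrays, 151 with array weights and 6 to 210 with 1 liver left out. The 3-wk and interaction counts of 0 were 2 and 15 among features with 1 symbol, and up to 1 and 36 with 1 liver left out.

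Of 1245 values for single genes under alternatives, 1158 kept their direction and side of the threshold, 49 were no longer called, 8 were newly called, 22 changed sign, and 8 within plate columns, which have no test, moved by more than the spread. Gadd45b at 3 wks was -0.0019 with centred arrays, -0.12 with array weights and -0.49 to 0.32 with 1 liver left out. Without LiSel1lKO replicates 3 and 4 at 3 wks, Btg2 at 3 wks was 0.0909, and the LiSel1lKO age differences were -0.0567 for Cdkn1a and -0.24 for Gadd45b. With 1 liver left out, Phlda3 at 9 wks ran between -0.0371 and 0.20. The interactions of Ccng1, Gadd45a and Mdm2 ran between -0.0208 and 0.21, -0.12 and 0.46, and -0.11 and 0.0644. Gadd45a in wildtype ageing ran between -0.14 and 0.45, and in LiSel1lKO ageing Gadd45b ran between -0.12 and 0.29 and Phlda3 between -0.0718 and 0.15. The cause of these shifts was not tested. No gene described had another feature with a single symbol, so the choice of feature per gene gave no alternative value.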
